A study of Mus musculus with 72 samples.

Results

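The genes described here encode the Y-complex, the scaffold of the nuclear pore that contains Nup133, together with Ahctf1. They are Nup133, Nup107, Nup160, Nup98, Nup85, Seh1l, Sec13, Nup37, Nup43 and Ahctf1, which are 10 of the 45321 genes with counts in the deposited files. They were taken by name as subunits of the complex, and each was represented by the annotated transcript with the highest total count. Their messenger RNA was followed in Nup133-mutant mouse embryonic stem cells and their controls, at day 0 (serum and leukemia inhibitory factor, after removal of feeder fibroblasts), at day 2 (N2B27 medium) and at day 3 (after a further 24 h with 1 µM retinoic acid). The control samples at each day were HM1 (Nup133+/+, 40 Chr, XY) as 2 biological replicates, and line 1A4, derived from a blastocyst (Nup133+/+, Sox1gfp/+, 40 Chr, XY). The knockout samples at each day were line 14 (Nup133-/-, 40 Chr, XY) and line 19 (Nup133-/-, likely 40 Chr, XY), both edited from HM1 with CRISPR/Cas9, and the blastocyst-derived line 319 (Nup133merm/merm and Sox1gfp/+, with a karyotype given as XX and 42 Chr, +8 +12). With 3 samples in every one of the 6 combinations of genotype and day, the series has 18 samples, and each knockout line was sampled once per day, so a property of 1 line and the absence of Nup133 can be told apart only by what the lines share. Any further trait that all 3 knockout lines share cannot be told apart from the loss of Nup133. P-values measure the spread between these samples, and 2 of the 3 controls at each day are the same line, HM1. The main fit treated the 3 days of each line as separate samples. P-values between genotypes therefore do not measure the spread between independent lines.

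Nuclear pore complexes are the channels through which RNA and protein pass between nucleus and cytoplasm. The Y-complex forms their outer rings: Nup160 with Nup37, and Nup85 with Seh1l and Nup43, make the short arms, Nup96 with Sec13 and Nup107 make the stem, and Nup133 sits at the end of the stem, bound to Nup107. Nup96 is made by cleavage of the product of the Nup98 gene, whose other product, Nup98, lines the channel and binds transport factors. Ahctf1, also called ELYS, brings the complex to chromatin at the end of mitosis. Sec13 is also a subunit of the COPII coat of transport vesicles, and Sec13 and Seh1l are subunits of GATOR2, which acts on nutrient signalling to mTORC1. Mouse embryos without functional Nup133 were earlier described as defective in neural differentiation, which is the background to following these cells toward neuroectoderm.

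Promoters of 7 of the 10 genes were found in the RefSeq table of build GRCm38.p6 (Nup133, Nup107, Nup160, Nup98, Sec13, Nup37 and Ahctf1), each running from 250 bases before to 50 bases after the annotated start. A total of 3 are shown because the results below turn on them: Nup133 is the mutated gene, Nup107 is its direct partner, and Sec13 is the member that was higher in every knockout sample than in the controls of its day. Capitals mark matches on either strand to the ETS core CCGGAA, to the NRF1 motif and to the cyclic AMP response element TGACGTCA. The last of these was added to the search after the sequences had been read.
Nup133 (chr8:123949216-123949515, minus strand): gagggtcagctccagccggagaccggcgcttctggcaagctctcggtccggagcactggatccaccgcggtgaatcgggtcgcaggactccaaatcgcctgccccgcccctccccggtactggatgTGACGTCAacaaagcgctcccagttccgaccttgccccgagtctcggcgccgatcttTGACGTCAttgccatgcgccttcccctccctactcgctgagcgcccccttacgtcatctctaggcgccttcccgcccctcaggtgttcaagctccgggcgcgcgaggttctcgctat
Nup107 (chr10:117792656-117792955, minus strand): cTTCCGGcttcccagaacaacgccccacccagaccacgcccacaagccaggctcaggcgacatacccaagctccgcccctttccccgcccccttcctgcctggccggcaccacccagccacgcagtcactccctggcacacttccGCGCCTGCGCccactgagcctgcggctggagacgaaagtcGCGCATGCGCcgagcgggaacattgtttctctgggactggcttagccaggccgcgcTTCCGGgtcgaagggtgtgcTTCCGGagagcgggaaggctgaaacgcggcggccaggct
Sec13 (chr6:113740632-113740931, minus strand): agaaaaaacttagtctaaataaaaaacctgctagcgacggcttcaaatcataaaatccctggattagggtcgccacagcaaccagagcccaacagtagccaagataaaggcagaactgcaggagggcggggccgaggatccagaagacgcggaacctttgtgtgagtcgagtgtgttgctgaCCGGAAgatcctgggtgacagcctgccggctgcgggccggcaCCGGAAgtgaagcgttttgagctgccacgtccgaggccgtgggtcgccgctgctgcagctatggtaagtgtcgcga
The cyclic AMP response element occurred 2 times in the Nup133 promoter and in none of the 6 other promoters of these genes, against 1.79% of all 32851 promoters in the table. The ETS core occurred in 3 of the 7 promoters (Nup107, Sec13 and Nup37) against 14.9% of all. The NRF1 motif occurred in the Nup107 promoter alone, 2 times, against 4.6% of all promoters. A CCAAT box (CCAAT) occurred in 2 of the 7 (Nup98 and Nup37) against 37.4%, and a TATA box (TATAAA) in 1 (Nup160) against 13.6%. No match was found in these windows to the E-box CACGTG or to the E2F motif TTTCCCGC, which 7.15% and 1.07% of all promoters held. The 7 promoters thus shared no single one of these motifs, and a match describes letters and not a bound factor.

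The samples held between 16.5 M and 54.4 M gene counts (M for mega), the lowest in line 19 at day 2. Each sample was compared with its label before the results were read. Lines 14 and 19, labelled XY, had 3.09 to 10.7 CPM (counts scaled to a common library size with TMM normalisation, in the usual CPM unit) summed over 6 Y-linked genes, against 108 to 335 CPM in the control lines labelled XY, so the Y-linked transcripts went against the label of both lines. Line 319, labelled XX, had 0.18 to 0.67 CPM. Low Y-linked transcripts were thus shared by all 3 knockout lines and cannot be told apart from their Nup133 genotype. Line 319 is also labelled with an extra chromosome 8 and an extra chromosome 12. Relative to line 1A4, the median log2 difference of genes on chromosome 12 was 0.42 to 0.47 over the 3 days, whereas on chromosome 8, where Nup133 lies, it was -0.56 to -0.40, opposite to the label. The chromosome 8 median was also below that of HM1 in line 19 (-0.38 to -0.21) and less so in line 14 (-0.08 to -0.05). On chromosome 11, where Nup85 lies, all knockout lines were below their controls, by medians of -0.31 to -0.25 in line 14, -0.35 to -0.21 in line 19 and -0.22 to -0.11 in line 319, and the control line 1A4 was itself below HM1, by -0.18 to -0.14. Medians of the autosomes other than 8, 11 and 12 lay between -0.105 and 0.185 in all lines, with line 19 at day 2 left out. That library stands apart from the others: it was the shallowest and had the largest share of counts on unmatched transcript identifiers (2.46% against 1.44% to 1.72% in the rest). Main results that rest on it are given with and without it.

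All 10 genes were expressed at every day and passed the filter on low counts. Per length, that is as CPM per kilobase of the counted transcript (RPKM), Nup85 and Sec13 were the most abundant in the day 0 controls, at 109 ± 4.5 and 108 ± 4.3 (SD, n = 3), and their ranges overlapped. Nup43 followed at 86.2 ± 2.6, with no overlap with its neighbours. Seh1l (74.2 ± 2.2), Nup37 (71.0 ± 4.6) and Nup107 (69.2 ± 1.9) formed a middle group whose neighbours overlapped. Ahctf1 (54.5 ± 9.0), Nup98 (49.2 ± 2.3), Nup133 (46.2 ± 8.2) and Nup160 (43.0 ± 4.0) made up the lowest group, again with overlapping neighbours. At day 3 Sec13 (71.4 ± 8.8) and Nup85 (71.3 ± 4.4) were again highest in the controls and Nup98 (25.5 ± 2.8) was lowest. The order depends on the length used: per kilobase of all exons of a gene, the day 0 controls had Nup85 first (71.6 ± 3.0), then Seh1l (63.7 ± 1.9), Nup107 (56.0 ± 1.5) and Sec13 (45.7 ± 1.8), with Nup98 last (15.8 ± 0.74). For Nup98 the counted transcript covers only part of the gene: it has 1187 codons, while the longest model has 1816 codons and 10 further exons that the counted transcript does not reach, so most of the region encoding Nup96 is not in these values.

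Nup133 transcript was present in every knockout sample at a low level. The counted transcript, ENSMUST00000044795, spans 26 exons and 5808 bases of chromosome 8 (GRCm38, 123897123 to 123949265, minus strand) and is the only one of 3 annotated Nup133 transcripts in the files, so its isoforms were not compared. HM1 replicate 1 had 237, 228.5 and 187 CPM at days 0, 2 and 3, HM1 replicate 2 had 245, 235.5 and 179.5 CPM, and line 1A4 had 323, 268 and 216 CPM. The knockout samples had 27.9, 20.2 and 17.2 CPM in line 14, 37.1, 36.0 and 24.1 CPM in line 19, and 23.9, 19.9 and 14.3 CPM in line 319. At each day every knockout value lay far below every control value, and line 19 was the highest of the knockout lines. The log2 difference was -3.19 ± 0.26 (SE), -3.28 ± 0.26 and -3.40 ± 0.27 at days 0, 2 and 3 (edgeR quasi-likelihood test, adjusted p = 2.13e-05, 3.16e-05 and 2.01e-05), which left 10.96%, 10.3% and 9.48% of the control level. Without line 19 at day 2, the Nup133 transcript was at -3.57 ± 0.25 at day 2 in a fit over all transcripts (edgeR quasi-likelihood test, adjusted p = 2.09e-05). In bulk samples, fewer cells with the transcript and less of it per cell cannot be told apart.

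**Figure D1:**
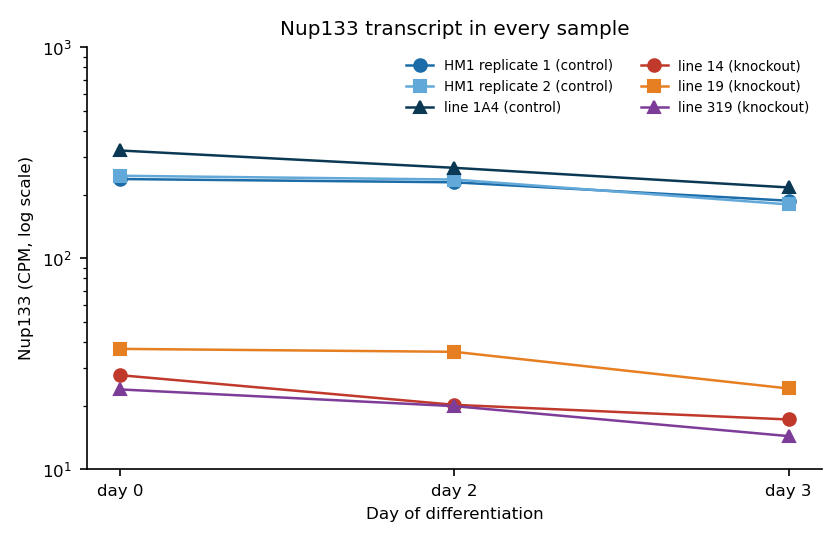
Nup133 level in each of the 18 samples, in CPM on a log axis, by day of differentiation. Points joined by a line are 1 control series (HM1 replicate 1, HM1 replicate 2, line 1A4) or 1 knockout line (14, 19, 319). The controls sit between 179.5 and 323 CPM and the knockout lines between 14.3 and 37.1 CPM, with line 19 the highest of the knockout lines at each day.

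The remaining Nup133 level differed between the knockout lines. Set against the controls of its own background, line 14 kept 11.6%, 8.72% and 9.41% at days 0, 2 and 3, line 19 kept 15.4%, 15.5% and 13.2%, and line 319 kept 7.38%, 7.43% and 6.65%. The order was thus line 19, line 14, line 319 at every day. A test of whether the genotype difference differed between the blastocyst-derived and the HM1-derived lines gave a log2 difference of -0.78 ± 0.23 for Nup133 (edgeR quasi-likelihood test, p = 0.00437, adjusted p = 0.0788). It rests on 1 knockout and 1 control line on the blastocyst side, each followed over 3 days, and did not pass the threshold of 0.05, and 3.54% of all genes tested did. None of the other 9 genes passed it. With the median of chromosome 8 subtracted, line 319 stood at -3.36, -3.19 and -3.40 (log2), line 14 at -3.06, -3.46 and -3.33 and line 19 at -2.49, -2.41 and -2.54, so line 319 no longer stood below line 14 at every day. The summed level of 12 feeder fibroblast markers was 88.8 to 249 CPM in the knockout samples and 113 to 250 CPM in the controls, with up to 2 of the 12 markers at a count of 0 in a knockout library. Members of this list did not move together. In the controls at days 0 and 2, Col1a1 was at 38.1 to 60.4 and 21.2 to 34 CPM. Thy1 was at 2.91 to 4.51 and 30.2 to 32.8 CPM, and Lum at most 0.12 CPM at day 0. The sum is thus no measure of feeder content, and the part of feeder cells in the remaining Nup133 level was not tested. Exons of Nup133 overlap Gm29773 (461 bases) and Gm45890 (268 bases) on the opposite strand, and the use of strand in counting is not given in the sources used here.

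No other member was called between knockout and control at any day in the fit of all 18 samples. The edgeR quasi-likelihood test called 0.854% of the 18273 genes tested at day 0, 1.6% at day 2 and 5.19% at day 3, and 0 of the 9 members at each. At an unadjusted p below 0.05 it found 0, 1 and 1 of the 9, against 10.6%, 20.4% and 21.9% of all genes. DESeq2 called 0, 0 and 1 of the 9, against 3.13%, 8.17% and 11.3% of all genes to which it gave an adjusted p. The median log2 difference of the 9 was -0.0024, -0.23 and 0.01, beside 0.01, 0.02 and 0.02 over all genes tested. The day 2 median rested on line 19, and without that library it was 0.02. The precision of the fit differed among the members: the 95% interval of the day 3 difference was -0.28 to 0.31 for Nup107 and -0.46 to 1.02 for Nup98. Each gene has 1 estimate of spread over all 18 samples, so line 19 at day 2 also enters the day 3 interval. In a fit over all transcripts without that library, the Nup98 transcript was at 0.31 ± 0.12 (SE) at day 3 and was not called. No change of the genotype difference between days was called for any of the 10 genes, while 0.0219% (day 0 to 2), 0.427% (day 0 to 3) and 0.0383% (day 2 to 3) of all genes were. With line 19 at day 2 left out the fit called 1 of the 9 at day 2 and 2 of the 9 at day 3, where 2.08% and 15.8% of all genes were called. The members that entered were Nup85 at both days and Sec13 at day 3.

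Nup85, the arm subunit that carries Seh1l and Nup43, was lower in each knockout line than in its controls at every day. HM1 replicates 1 and 2 and line 1A4 had 244, 251 and 231 CPM at day 0, and lines 14, 19 and 319 had 221, 214 and 212.5 CPM. At day 3 these controls had 168, 161 and 148 CPM and the knockout lines 138, 133.3 and 127 CPM. The groups did not overlap at either day, which held for 17.8% of all genes tested at day 0 and 35.2% at day 3. At day 2 the controls had 224, 237 and 201 CPM and the knockout lines 158, 216 and 152 CPM, so line 19 lay among the controls. The log2 difference was -0.16 ± 0.12, -0.33 ± 0.12 and -0.26 ± 0.12 at days 0, 2 and 3 (edgeR quasi-likelihood test, adjusted p = 0.756, 0.151 and 0.232). Without line 19 at day 2 it was -0.49 ± 0.08 at day 2 (adjusted p = 0.00934) and -0.27 ± 0.07 at day 3 (adjusted p = 0.0229). With the median of chromosome 11 subtracted, the day 3 differences were 0.05 in line 14, 0.04 in line 19 and 0.00 in line 319, close to the chromosome as a whole. At day 2 they were -0.23, 0.17 and -0.22, so lines 14 and 319 lay below the chromosome. Between the controls, Nup85 was lower in line 1A4 than in HM1 as well, by -0.20 to -0.10. When each chromosome was centred in every sample, an analysis added after the data had been seen, the Nup85 differences were 0.04, -0.08 and 0.05 and none was called, with or without line 19 at day 2.

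Sec13, shared by the pore, the COPII coat and GATOR2, was higher in every knockout sample than in any control of the same day. At day 0 the controls had 149, 148 and 139 CPM and lines 14, 19 and 319 had 162, 152 and 167 CPM. At day 2 they had 109.9, 103 and 111 CPM against 123, 136 and 124 CPM, and at day 3 they had 93.2, 86.9 and 109.8 CPM against 131, 116 and 126 CPM. The groups did not overlap at any of the 3 days, which among the 10 genes held otherwise only for Nup133, and held for 2.83% of all genes tested. The log2 difference was 0.14 ± 0.12, 0.24 ± 0.12 and 0.37 ± 0.12 (edgeR quasi-likelihood test, adjusted p = 0.797, 0.255 and 0.0775). Without line 19 at day 2 the day 3 difference was 0.36 ± 0.09 and was called (adjusted p = 0.0151), and DESeq2 on all samples gave 0.38 (adjusted p = 0.00467). Centring each chromosome, together with leaving out line 19 at day 2, left 0.31 ± 0.08 (adjusted p = 0.028). Across all annotated transcripts, of which 3.19% were called at day 3, the retained-intron transcript ENSMUST00000145979 of Sec13 was called at day 3 (0.48, adjusted p = 0.0461), while ENSMUST00000138204 was at 0.46 (adjusted p = 0.0535). With line 19 at day 2 left out, where 15.2% of all transcripts were called at day 3, all 3 Sec13 transcripts were, at 0.39 to 0.46. At day 2, 1 of the 9 Nup85 transcripts tested was called (ENSMUST00000135893, -0.68, adjusted p = 0.0328), where 1.22% of all transcripts were. It is the Nup85 transcript that stood lowest in line 19 at day 2 relative to the other knockout lines (-0.55). With that library left out it was at -0.58 (edgeR quasi-likelihood test, adjusted p = 0.022) and 7 of the 9 were called, against 1.73% of all transcripts. Transcripts of 1 gene share reads, so the calls within Nup85 and within Sec13 are not independent of each other or of the gene's own result.

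The direct partner of Nup133, Nup107, showed no called difference and little spread at day 0 and day 3. Its level was 209 to 221 CPM in the day 0 controls and 203 to 227 CPM in the knockout lines, and 134 to 152 CPM against 140.2 to 147 CPM at day 3. The ranges overlapped at both days, and the log2 difference was 0.02 ± 0.14 and 0.01 ± 0.14 (edgeR quasi-likelihood test, adjusted p = 0.995 and 0.973), with a 95% interval of -0.28 to 0.31 at day 3. Nup160 was at 160 to 164 CPM in the day 3 controls and 149 to 155 CPM in the knockout lines, groups that did not overlap, at a log2 difference of -0.08 ± 0.28 (adjusted p = 0.911). Nup43 at day 3 was at 60.26 to 65.0 CPM against 49.9 to 60.22 CPM, Nup98 at 90.9 to 112.7 CPM against 113.4 to 139 CPM, and Ahctf1 at 239.5 to 259 CPM against 260.2 to 302 CPM. These groups also just failed to overlap, and none of the 3 was called. In all, the groups of 2, 2 and 6 of the 9 members did not overlap at days 0, 2 and 3, beside 17.8%, 21.7% and 35.2% of all genes tested. Seh1l, and Nup37 at days 0 and 3, overlapped between the groups, and both were lowest at day 0 in line 319 (218 and 67.7 CPM).

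**Figure D2:**
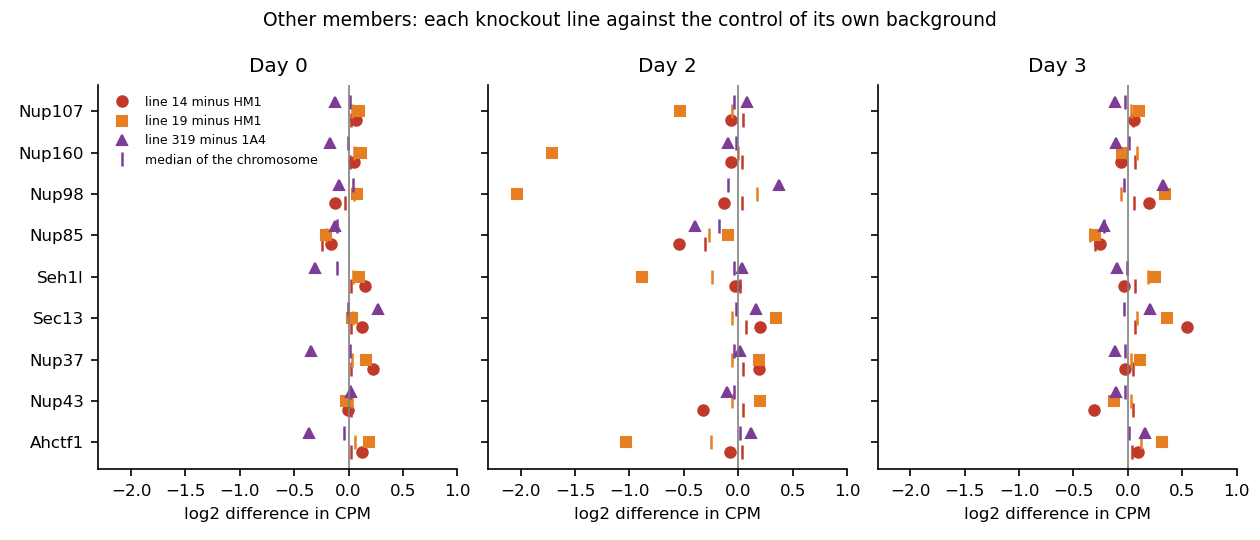
Difference of each knockout line from the control of its own background, as log2 of CPM, for the 9 members other than Nup133 at days 0, 2 and 3. Symbols are lines 14 (circles), 19 (squares) and 319 (triangles), and short vertical bars give the median difference of all genes on the member's chromosome in that line. Sec13 lies to the right of 0 and Nup85 to the left in all 3 lines at each day, with Nup85 close to its chromosome's bars at days 0 and 3, and line 19 at day 2 lies far to the left for Nup98, Nup160, Ahctf1 and Seh1l.

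Line 19 at day 2 had low values for 5 of the members. Nup98 stood at 30.0 CPM, against 112 and 152 CPM in lines 14 and 319, Nup160 at 67.8 CPM against 211 and 239 CPM, and Ahctf1 at 153 CPM against 297 and 377 CPM. Seh1l (137 CPM) and Nup107 (132 CPM) were at 52.4% and 67.3% of the mean of both other lines. Nup37, Sec13, Nup43 and Nup85 were at 102%, 110%, 135% and 139%, and Nup133 at 178%. The low members were those with longer transcripts, from 3114 bases (Nup107) to 8506 bases (Ahctf1), and the members not low had at most 2230 bases, except Nup133 with 5808. Over all genes the same library followed transcript length. Its median log2 difference from lines 14 and 319 was 0.99 for transcripts up to 1000 bases, 0.13 between 2000 and 3000 bases and -0.88 above 6000 bases. Nup98 (-2.1) and Nup160 (-1.72) lay below the lower quartile of genes with 4000 to 6000 bases (-0.97). Seh1l (-0.93) lay below that of genes with 3000 to 4000 bases (-0.65). The other low members, Ahctf1 and Nup107, lay within the quartiles of their length class.

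In this library, counts on Ahctf1, Nup160 and Nup85 were lower toward the 5' side of the gene. Distances are along the genome, introns included, and position over all genes is not given here. Within Ahctf1, the partial transcript ending 443 bases from the 3' end of the gene was at a log2 difference of 0.12 from the other lines, that at 8805 bases was at -1.59 and that at 23401 bases was at -2.71. A pair of Ahctf1 transcripts farther upstream, at under 2 CPM, were at -0.67 and -0.51. Within Nup160 the short transcript 544 bases from the 3' end was at -0.69 and that at 42089 bases was at -2.35, and within Nup85 the values ran from 1.24 at 202 bases to -0.55 at 14094 bases. The ratio of counts on the far Ahctf1 transcript to counts on the near one was 6.35% in this library and 45.2% to 69.8% in the 17 others. For Nup160 the ratio of a far to a near transcript was 10.9% against 49.8% to 65.5%, and for Nup85 it was 28.3% against 83.6% to 139%. In all 3 genes no other library came near it. These transcripts were picked after their values had been seen. The Nup98 transcript that was counted ends 14805 bases before the 3' end of its gene, and it was the lowest of the members.

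**Figure D3:**
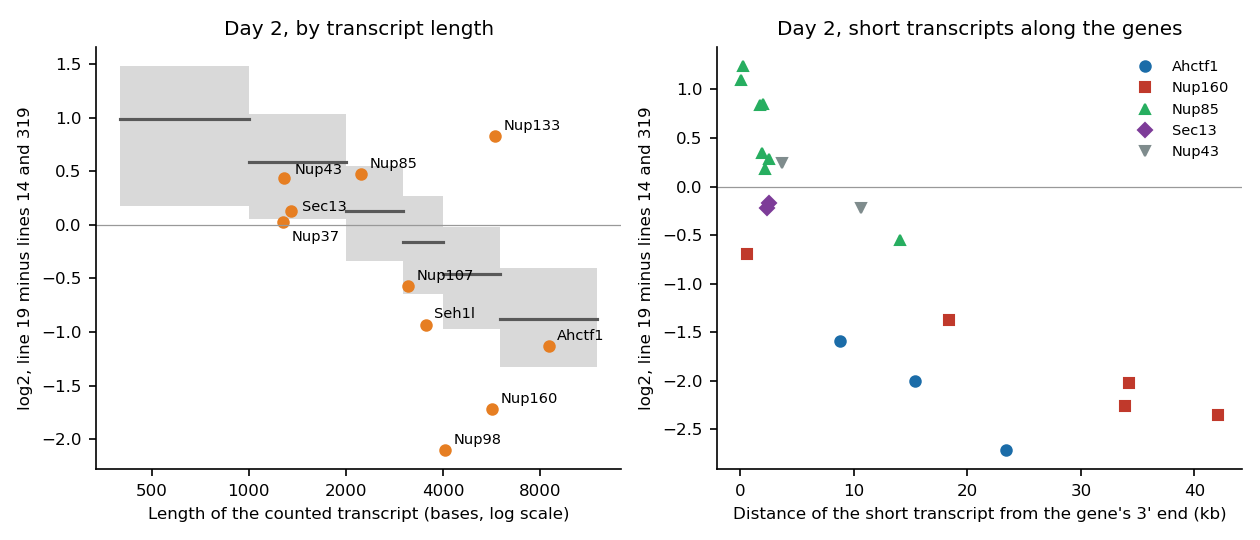
Line 19 at day 2 against the mean of lines 14 and 319 at day 2, as log2 of CPM + 0.5. Left, by length of the counted transcript on a log axis: grey bars give the median and shaded boxes the quartiles of all genes in 6 length classes, and orange points are the 10 genes; right, short annotated transcripts of up to 1000 bases and at least 5 CPM in 5 of the genes, by distance in kb from the 3' end of the gene. Class medians fall from 0.99 to -0.88 with length. Nup133 lies above the quartiles of its class at 0.83, and Nup98, Nup160 and Seh1l lie below those of theirs. The transcripts farthest from the 3' end are the lowest within Ahctf1, Nup160 and Nup85.

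Most of the Y-complex messages fell as the cells differentiated. In all 54 combinations of the 9 members with the 6 series of samples (a control replicate or a knockout line followed over the days), the level at day 3 was below that at day 0, and 38 of the 54 had a lower value at each step. The 54 are not independent, as the same 9 genes recur in the same samples. Of all genes tested, 48.5% had a negative log2 change from day 0 to day 3 in the controls and 49.5% in the knockout lines. The share of all genes that fell in every series was not computed. From day 0 to day 3, a comparison added after the data had been seen, 7 of the 9 fell in the controls and 6 of the 9 in the knockout lines (edgeR quasi-likelihood test), where 23.3% and 22.2% of all genes were called lower. Leaving out line 19 at day 2 gave 9 of 9 in each, against 28.2% in the controls and 28.2% in the knockout lines. The median log2 change of the 9 was -0.61 in the controls and -0.67 in the knockout lines, beside 0.04 and 0.01 over all genes tested. Nup43 fell by 0.82 ± 0.13 in the controls and by 0.99 ± 0.13 in the knockout lines (adjusted p = 0.000124 and 1.91e-05), to 56.7% and 50.2% of its day 0 level. Its values went from 113, 112 and 107 CPM to 63.4, 60.3 and 65.0 CPM in the controls, and from 112, 111 and 109 CPM to 49.9, 56.6 and 60.2 CPM in the knockout lines, so the days were far apart in both. Ahctf1, the most counted of the genes, went from 424, 416 and 552 CPM to 247, 239.5 and 259 CPM in the controls, a log2 change of -0.89 ± 0.21 (adjusted p = 0.00238), and to 62.1% of its day 0 level in the knockout lines (adjusted p = 0.0123). Seh1l was at -0.42 ± 0.20 and -0.36 ± 0.20 and was not called in the fit of all samples in either genotype. Nup133 itself was at -0.47 ± 0.24 in the controls (adjusted p = 0.116), and fell by 0.68 ± 0.24 in the knockout lines (adjusted p = 0.03). Its change in the controls was called without line 19 at day 2 (adjusted p = 0.0465) and with the replicate block (adjusted p = 0.00692).

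The members differed in the step at which a decline was called. From day 0 to day 2 all 9 had a lower value in the controls, and only Sec13 was called (-0.43 ± 0.12, edgeR quasi-likelihood test, adjusted p = 0.00946), where 15.5% of all genes were called lower. Of all genes tested, 49.4% had a lower value at this step. Without line 19 at day 2, 4 of the 9 were called, against 21.9% of all genes: Nup98 at -0.71, Ahctf1 at -0.50, Sec13 and Nup37 at -0.37. From day 2 to day 3, when retinoic acid was present, 3 of the 9 fell in the controls, Nup43 by 0.70, Nup85 by 0.47 and Nup107 by 0.45, where 8.92% of all genes were called lower. Without line 19 at day 2, 6 of 9 fell, against 15.1% of all genes, and the members that entered were Nup160 (-0.52), Seh1l (-0.40) and Ahctf1 (-0.38). In that fit Sec13, Nup98 and Nup37 were thus called at the first step and not the second in the controls, and Nup43, Nup85, Nup107, Nup160 and Seh1l at the second and not the first. Whether a member's 2 steps differ from each other was not tested.

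In the knockout lines 3 of the 9 fell from day 0 to day 2, Nup98 (-0.998), Ahctf1 (-0.75) and Sec13 (-0.33), against 15.1% of all genes called lower. All 9 had a lower mean, beside 46.8% of all genes tested. Line 19 carried much of the first value: Nup98 went from 188 to 112 CPM in line 14, from 216.5 to 30.0 CPM in line 19 and from 178 to 152 CPM in line 319. Without that library 5 of the 9 fell, against 17.7% of all genes, and Nup85 (-0.45) and Nup43 (-0.33) entered. From day 2 to day 3 Nup43 (-0.82), Nup37 (-0.42) and Nup85 (-0.40) fell, against 16% of all genes called lower, while Nup98 and Ahctf1 were at 0.37 and 0.07, neither called. Line 19 set both signs: with its day 2 library left out they were at -0.10 and -0.23, again not called. Without line 19 at day 2, 6 of 9 fell at this step, against 14.9% of all genes, with Nup107 (-0.46), Nup160 (-0.55) and Seh1l (-0.39) added. With the replicate block, which compares each series with itself over the days, Sec13 from day 0 to day 2 (adjusted p = 0.0556) and Nup37 from day 2 to day 3 (adjusted p = 0.0517) were no longer called in the knockout lines, and Nup133 from day 2 to day 3 was (-0.43, adjusted p = 0.0193).

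**Figure D4:**
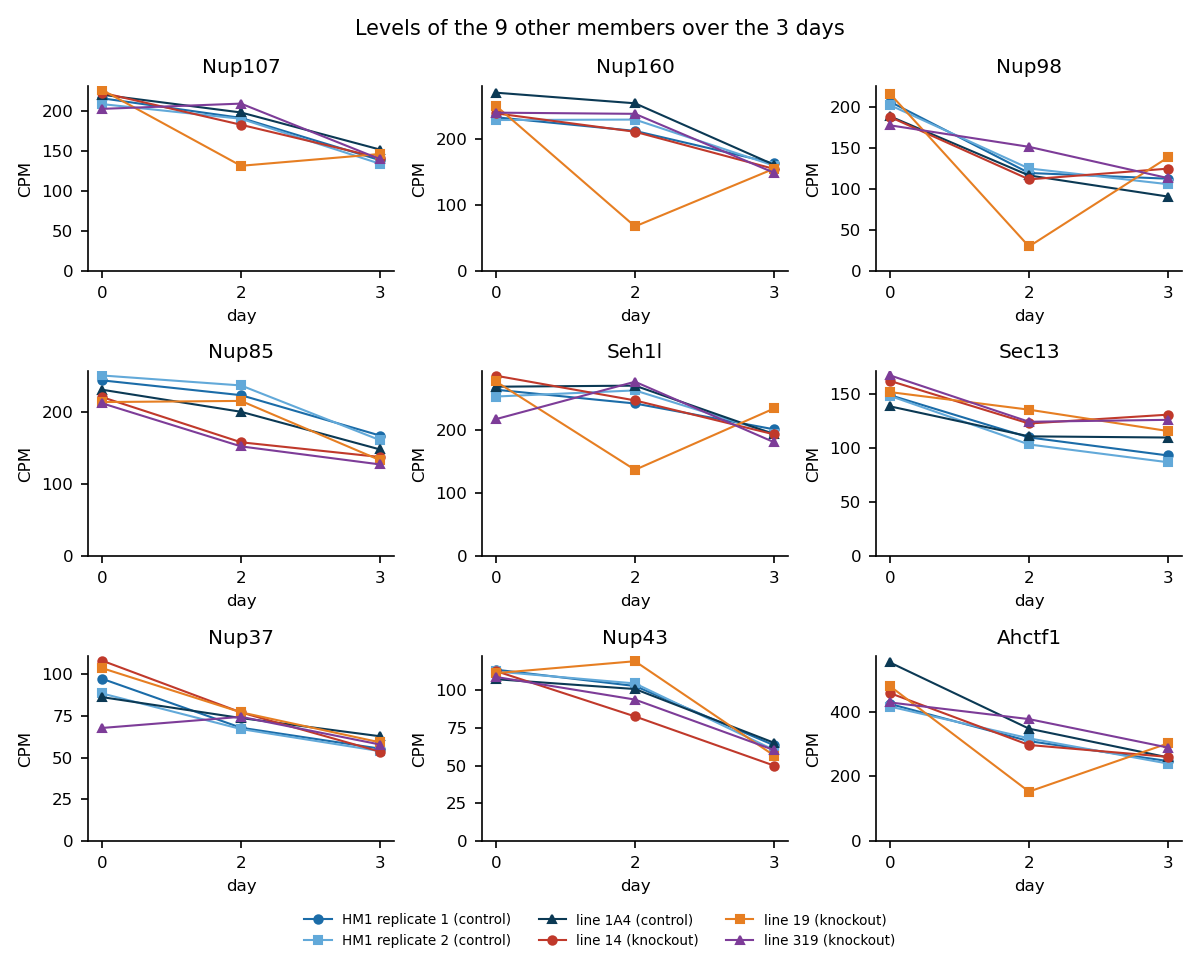
Levels in CPM of the 9 members other than Nup133 at days 0, 2 and 3, on linear axes that start at 0, with each of the 3 control series and 3 knockout lines as joined points. Every series ends below where it began in all 9 panels. Line 19 at day 2 drops out of the pattern for Nup98 (30.0 CPM), Nup160 (67.8 CPM), Ahctf1, Seh1l and Nup107.

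Across the 18 samples the log2 levels of the 9 members were positively related in all 36 pairs, with Pearson's r from 0.17 to 0.92 and a median of 0.60. The samples share the day of differentiation and, in line 19 at day 2, the low values of the members with longer transcripts, so these correlations are a description. Nup107 followed the mean of the other 8 most closely and Sec13 least (r = 0.551). The genes outside the complex most like the mean of the 9 were Gfm1 (a mitochondrial elongation factor, r = 0.981), Orc1 (a subunit of the origin recognition complex, 0.981), Urb1 (0.978), Rest (a repressor of neuronal genes, 0.977) and Tcea1 (a transcription elongation factor, 0.976). Those most like Nup133 were Zfy1 (0.967), Magohb (0.949), Uba1y (0.949), Ddx3y (0.939) and Kdm5d (0.937), of which all but Magohb are on the Y chromosome and near 0 in the knockout lines. Magohb, a core subunit of the exon junction complex on chromosome 6, was at 12.0 to 14.9 CPM in the controls and 1.89 to 7.69 CPM in the knockout lines, with log2 differences of -1.80, -1.48 and -2.05 at days 0, 2 and 3 (edgeR quasi-likelihood test, adjusted p = 0.0053, 0.0154 and 0.00171).

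Of 22 nucleoporins outside the Y-complex, 20 passed the filter on low counts. Between knockout and control, 0 of the 20 were called at day 0, Nup210l was called higher at day 2, and Nup210l higher and Nup88 lower at day 3 (edgeR quasi-likelihood test), beside the 0.854%, 1.6% and 5.19% of all genes called. Nup210l, a relative of the membrane nucleoporin Nup210, was at 0.67 to 0.88 CPM in the day 2 controls and 3.90 to 5.35 CPM in the knockout lines, and at 0.57 to 0.81 CPM against 6.67 to 9.78 CPM at day 3, groups far apart on a low level. Its log2 difference was 2.49 ± 0.31 at day 2 (adjusted p = 0.000884). By day 3 the difference was 3.57 ± 0.32 (adjusted p = 5.23e-05). Nup88, of the cytoplasmic face of the pore, was at 199 to 228 CPM in the controls and at most 164 CPM in the knockout lines at day 3 (-0.50 ± 0.12, adjusted p = 0.0248). It lies on chromosome 11, like Nup85. From day 0 to day 3, 15 of the 20 were called lower and 1 higher in the controls, and 11 lower and 2 higher in the knockout lines, with medians of -0.73 and -0.50, beside 23.3% and 22.2% of all genes called lower. These counts include the fall in Nup88 in the knockout lines and, for Nup210l, a fall in the controls and a rise in the knockout lines.

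The other partners of the shared subunits showed no called difference between knockout and control. Of 11 COPII genes, 0 were called at any day, with medians of 0.0038, -0.20 and 0.01 at days 0, 2 and 3. From day 0 to day 3, 3 of the 11 fell and 1 rose in the controls, and 2 fell and 1 rose in the knockout lines, near the 23.3% and 22.2% of all genes called lower. Of these, named after their values were seen, were Sec31a, the partner of Sec13 in the outer coat, and Sec31b. Their changes from day 0 to day 3 were -0.80 ± 0.17 (edgeR quasi-likelihood test, adjusted p = 0.00109) and 2.96 ± 0.31 (adjusted p = 1.87e-06), and are not differences between genotypes. The 3 GATOR2 genes Mios, Wdr24 and Wdr59 had lower values in the knockout lines at each day and 0 were called. Mios, named after its values were seen, was at 15.1 to 24.3, 20.3 to 28.7 and 27.1 to 31.3 CPM in the controls at days 0, 2 and 3, and at 12.7 to 15.2, 9.34 to 18.4 and 20.0 to 22.9 CPM in the knockout lines, ranges that were separate at days 2 and 3. The groups were separate for 21.7% of all genes tested at day 2 and 35.2% at day 3. The 9.34 CPM was that of line 19 at day 2, with 17.9 and 18.4 CPM in lines 14 and 319. Between genotypes Mios was not called. Its level rose from day 0 to day 3, by 0.68 in both genotypes (edgeR quasi-likelihood test, adjusted p = 0.0123 in the controls and 0.0119 in the knockout lines). Wdr24 and Wdr59 fell in the knockout lines (-0.48 and -0.57, edgeR quasi-likelihood test, adjusted p = 0.00525 and 0.0216) and were not called in the controls (-0.29 and -0.30). The change of the genotype difference from day 0 to day 3 was called for 0 of the 3 genes. Of all genes tested, 51% were called in either direction from day 0 to day 3 in the controls and 50.6% in the knockout lines.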

How the data were processed

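Messenger RNA was sequenced in 72 libraries, 4 technical libraries for each of 18 samples, from polyA-selected stranded libraries, per the labels' protocols. The deposited files hold raw read counts per transcript; the submitters' processing notes name bcl2fastq 2.17.1.14, STAR 2.4.0k, SAMtools, HTSeq and build mm10, while the release of the annotation and how strand was used are not given in the sources used here. Technical libraries were summed. Of 110379 transcript identifiers, 108214 matched GENCODE M21; unmatched ones (1.44% to 2.46% of counts) were left out. A read counts for every transcript it overlaps (2.62 to 2.92 transcript counts per gene count), so each gene was represented by its transcript with the highest total count.

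Genes passing edgeR's filterByExpr (18273) were fitted with edgeR 4.0.16 (R 4.3.3; TMM scaling, quasi-likelihood test, Benjamini-Hochberg adjustment, threshold 0.05) with 6 groups of genotype and day plus a term for genetic background, leaving 11 residual degrees of freedom and a common biological coefficient of variation of 0.246. CPM and RPKM were computed here from the deposited counts. Tested on simulated data for the day 3 genotype comparison over 18273 genes, the fit recovered 32% of 2-fold and 75% of 4-fold changes, with 4 false calls. The simulated counts were independent between samples, with no differences between lines, so the 4 false calls do not give the rate in these data. Alternatives were DESeq2 1.42.0, its size factors in edgeR, no filter, the longest or summed transcripts, no background term, each day alone, HM1-derived lines only, leaving out samples, and replicate blocks (edgeR, or limma 3.58.1). Samples of 1 line over the days were paired by line, and 16 of 18 pairs had deviations correlated above 0.1 (-0.0883 to 0.4). Line differences used 14163 genes averaging 1 CPM or more and a pseudocount of 0.5.

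Members were taken by name, and the members and lists were chosen with earlier results of these data known. Genes named are the 10 members, listed nucleoporins, COPII and GATOR2 partners called between genotypes, and the 5 genes most correlated with Nup133 and with the mean of the 9 others over 18 samples, leaving out clone names and overlapping genes. Other names are said to be chosen after their values were seen.

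Cell type markers were summed in CPM at days 0, 2 and 3. Pluripotency markers (8) ran 4600 to 4935, 1293 to 1327 and 503 to 596 in controls and 5188 to 6266, 1276 to 1817 and 279 to 629 in knockout lines. Epiblast markers (4) ran 347 to 564, 3138 to 3501 and 148 to 252 against 337 to 662, 2320.0 to 3653 and 146 to 191. Neural progenitor markers (6) ran 59.1 to 162, 216 to 275 and 292 to 347 against 49.1 to 76.3, 92.6 to 228 and 261 to 894. Primitive endoderm markers (6) ran 11.9 to 19.1, 18.5 to 19.8 and 52.6 to 59.8 against 9.04 to 28.2, 13.6 to 26.0 and 61.4 to 65.9. Mesendoderm markers (6) ran 53.9 to 114, 19.4 to 34.5 and 11.6 to 21.8 against 11.8 to 16.4, 8.29 to 24.8 and 30.8 to 77.3. Single genes carried some sums. At day 3 Lhx1 was at 5.11 to 15.5 CPM in controls and 24.6 to 68 in knockout lines, while T was at 3.43 to 4.27 against 0.991 to 2.9. Among neural markers at day 3, Nes was at 136 to 214 against 171 to 444 and Pax6 at 23.5 to 42.5 against 36.4 to 322. Sox3 was at 41.5 to 46.1 against 25.5 to 36.7, and Hes5 at 2.55 to 16.4 against 1.16 to 8.89. Of the primitive endoderm markers, Gata4 was at 3.26 to 6.01 against 8.44 to 14.5 and Dab2 at 28.9 to 33.9 against 19.7 to 23 at day 3. At day 2 Dnmt3b was at 2820 to 3160 against 1740 to 3070. The 3 other epiblast markers had higher values in the knockout lines, with Fgf5 at 54.9 to 63.9 against 118 to 151.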

Additional observations from a re-analysis of the deposited data

Results flagged for a closer look

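The genotype difference of Nup210l, a nucleoporin outside the Y-complex, was larger at day 3 than at day 0 by 3.06 ± 0.43 on the log2 scale (edgeR quasi-likelihood test of the change in the difference, adjusted p = 0.00461). The knockout lines went from 1.3 to 2.59 CPM at day 0 to 6.67 to 9.78 CPM at day 3, and the controls from 0.961 to 1.44 CPM to 0.568 to 0.806 CPM.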

How the results depend on the processing

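Over 19 settings the log2 difference of Nup133 kept its direction, from -3.39 to -2.88 at day 0, -3.62 to -3.01 at day 2 and -3.63 to -3.06 at day 3. It was called in all but 1 of them, each day fitted alone, at day 2 (-3.27, adjusted p = 0.188), a fit that called 0% of the 16736 genes tested, and the cause was not tested. No other member was called between genotypes at day 0 in any setting, and no change of a genotype difference between days was called for any member. Shares in parentheses are of all genes tested in the same setting, those called lower for changes over days. At day 2, 1 of the 9 was called without line 19 at day 2 (2.08%), and 0 to 1 when a series of samples was left out, with 1 when knockout replicate 2 (line 19) was. At day 3, 1 was called with DESeq2 (11.3%), 2 without line 19 at day 2 (15.8%), 1 with that and each chromosome centred (13.2%), and 0 to 1 when a series was left out, again 1 without line 19. Of changes over days, the controls from day 0 to 2 had 2 called with DESeq2 (18.1%), summed transcripts (14.2%) or HM1-derived lines only (12.7%), 0 with no filter (7.35%), 3 with chromosomes centred (16.8%), 4 without line 19 at day 2 with or without centring (24.3% and 21.9%), and 0 to 4 when a series was left out (0 without control replicate 1 or 2, 4 without line 19, 2 without line 319). Controls from day 2 to 3 had 1 with no filter (4.26%) or HM1-derived lines only (7.21%), 6 without line 19 at day 2 (15.1%), 7 with that and centring (17.3%), and 0 to 6 when a series was left out (0 without control replicate 2, 1 without control replicate 1 or 3, 6 without line 19). Knockout lines from day 0 to 2 had 1 with no filter (7.09%), 5 without line 19 at day 2 with or without centring (19.7% and 17.7%), and 1 to 5 when a series was left out (1 without control replicate 1, control replicate 2 or line 14, 5 without line 19). Knockout lines from day 2 to 3 had 1 with no filter (7.51%), 6 without line 19 at day 2 with or without centring (16.5% and 14.9%), and 1 to 4 when a series was left out (1 without control replicate 1 or 2). With a series left out, the share of all genes called was 0.119% to 7.35% and 0.0919% to 10.8% between genotypes at days 2 and 3, and the share called lower was 5.84% to 22.3% and 2.15% to 16.4% at the steps in controls and 8.2% to 17.1% and 10.1% to 20.4% in knockout lines. The cause of these shifts was not tested. From day 0 to day 3, 5 to 9 of the 9 were called in controls and 4 to 9 in knockout lines. With the replicate block as a random effect Nup85 from day 0 to 2 in the knockout lines was also called (-0.33, adjusted p = 0.0408), and the blocks changed no call other than those given here and above. Chromosome centring and the day 0 to day 3 comparison were chosen after seeing the data. With the length of all exons of a gene in place of the counted transcript, the RPKM of 9 of the 10 genes moved beyond their spread and their order changed.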
